A study of Homo sapiens with 5 samples.

Results

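The genes of mitochondrial complex I that carry NDUF names were examined in HEK293 cells, an established human embryonic kidney line, with and without a single-base variant in SIRT3. Every protein-coding row of the count table whose gene symbol begins with NDUF was taken, which gave 47 of 16677 genes. Of these, 39 carry the names of subunits (NDUFA, NDUFB, NDUFC, NDUFS, NDUFV and NDUFAB1) and 8 are NDUFAF assembly factors. All 47 passed the filter on low counts, with between 18 and 4441 counts per library, so no member was lost to it. The Control group is 2 libraries of wild-type HEK293, and the rs11607019 group is 3 libraries of HEK293 carrying the T-to-C change, called variant 1, variant 2 and variant 3 here. Both groups were grown under basal conditions, with no treatment named. The labels do not say whether libraries of a group are separate clones or repeated cultures of 1 clone, so p-values measure only the spread between these libraries.

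Complex I is the NADH dehydrogenase of the respiratory chain. It takes electrons from NADH in the matrix arm, passes them along iron-sulfur clusters to ubiquinone, and pumps protons through its membrane arm. Its core subunits do this work and are shared with bacteria, accessory subunits surround them, and assembly factors help to build the complex without staying in it. Some core subunits are encoded in the nucleus and the others, the ND genes, in mitochondrial DNA. SIRT3 removes acetyl groups from mitochondrial proteins, using NAD, and the matrix-arm subunit NDUFA9 is among its described substrates. The NDUF prefix is not a perfect guide to the complex: NDUFA4 is now counted with complex IV and is named COXFA4 by RefSeq, and NDUFA4L2 is a hypoxia-induced relative of it.

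No NDUF gene passed the test, but 42 of the 47 had a lower fitted level in the variant libraries (49.5% of all tested genes did). In edgeR's quasi-likelihood test 0 of 47 had an adjusted p under 0.05 (0% of the 16310 genes tested), and 0.616 was the smallest adjusted value. DESeq2 and limma-voom also gave 0 of 47, where over all genes DESeq2 gave 31 of 16677 and limma-voom 0 of 16310. With no adjustment, 12 of 47 had a p under 0.05, all lower in the variant, beside 3.51% of all tested genes lower and 4.11% higher by that rule, or 7.62% in all. These 12 are NDUFB3, NDUFA5, NDUFA4, NDUFS4, NDUFB4, NDUFC1, NDUFA2, NDUFS5, NDUFB5, NDUFB8, NDUFAB1 and the assembly factor NDUFAF1. Of the 12, 11 were highest in Control 1. Without Control 1 the count was 1, NDUFB8, where 1.19% of all genes tested were lower by that rule. It was 5 without variant 1 (2.82% of all genes lower) and 5 without variant 2 (2.12%), so it depended on several libraries. The 12 remained lower without Control 1, with a median log2 fold change of −0.25 in place of −0.52. They were chosen in a fit that holds the remaining libraries, so their staying lower is partly set by that choice. Of all members, 36 of 47 were lower without Control 1, beside 47.4% of all tested genes.

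Promoter sequences are shown for 4 members, to set the letters beside their levels. NDUFB3 had the largest difference between the groups and no match in the stretch shown (its Sp1 matches lie further upstream), and NDUFB4 is a lower member with matches to the NRF1 motif. NDUFA11 holds such a match with nearly equal group levels, and NDUFS3 holds ETS matches with nearly equal levels. NRF1 and the ETS factor GABP are known activators of nuclear genes for the respiratory chain. Each line gives the 160 bases before the RefSeq start site on GRCh38.p14, 5′ to 3′ on the gene's strand, with matches to the NRF1 motif (NDUFB4, NDUFA11) or the ETS motif (NDUFS3) in capitals. Another NDUFB4 match spans the start and is not fully within the stretch shown.
NDUFB3 (chr2:201071841-201072000, forward strand): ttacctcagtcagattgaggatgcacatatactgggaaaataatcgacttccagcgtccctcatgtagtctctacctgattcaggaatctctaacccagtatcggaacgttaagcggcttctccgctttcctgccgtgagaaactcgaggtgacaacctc
NDUFB4 (chr3:120596176-120596335, forward strand): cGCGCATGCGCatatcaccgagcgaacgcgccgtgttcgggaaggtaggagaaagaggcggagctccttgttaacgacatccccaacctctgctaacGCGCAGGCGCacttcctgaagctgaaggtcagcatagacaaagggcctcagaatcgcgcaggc
NDUFA11 (chr19:5903791-5903950, reverse strand): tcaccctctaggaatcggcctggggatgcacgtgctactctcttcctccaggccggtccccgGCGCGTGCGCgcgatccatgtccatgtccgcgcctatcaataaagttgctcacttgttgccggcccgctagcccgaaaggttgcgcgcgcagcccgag
NDUFS3 (chr11:47578914-47579073, forward strand): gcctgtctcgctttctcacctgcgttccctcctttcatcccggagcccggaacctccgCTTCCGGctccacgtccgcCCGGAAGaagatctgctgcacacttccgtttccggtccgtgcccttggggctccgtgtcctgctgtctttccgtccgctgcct

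The RefSeq promoter table had an entry for 41 of the 47 members, of which NDUFA4 and NDUFA4L2 were matched by their older symbols, and no entry was found for the other 6, which include NDUFAF6, NDUFB5, NDUFB9, NDUFC2 and NDUFS5. Both strands were searched from 250 bases before to 50 bases after each listed start, and a gene counted when any of its starts had a match. The NRF1 motif, searched as the palindrome GCGCATGCGC with the fifth base free, lay in 7 of 41 members (17.1%) and in 9.67% of 15843 protein-coding genes. The ETS motif CCGGAAG lay in 7 of 41 (17.1%) and in 16.5% of all. The YY1 motif AAGATGGC lay in 8 of 41 (19.5%), in each case downstream of a start, and in 4.66% of all. The Sp1 motif GGGCGGG lay in 15 of 41 (36.6%) and in 50.3% of all. Among the 10 promoters of genes at an unadjusted p under 0.05, the NRF1 motif lay in 1, the ETS motif in 0, the YY1 motif in 2 and the Sp1 motif in 5. Among the other 31 the counts were 6, 7, 6 and 10. The exact palindrome GCGCATGCGC was found in NDUFB4, whose log2 fold change was −0.54, and in NDUFA8 and NDUFAF5, with 0.12 and 0.12. A match is a description of the letters and not evidence of binding.

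Library totals ran from 17122569 to 17596084 counts. Of 7 genes listed for HEK293, VIM, LIN28B, PAX2 and CD24 were above 1 CPM (counts relative to the library total, scaled by edgeR's trimmed mean of M-values) in every library, and NEFL, NEFM and INA were not among the rows. None of the leukocyte, hepatocyte, keratinocyte, endothelial or erythroid markers listed was among the rows, and of 4 fibroblast markers only COL1A1 was, at 28.4 to 46.3 CPM. The table holds no gene with fewer than 3 counts in a library, so an absent row is not a measured 0. SIRT3 stood at 28.9 and 29.3 CPM in Control 1 and 2 and at 26.5, 15.8 and 30.2 CPM in variant 1, 2 and 3, (adjusted p = 0.815, edgeR). Transcript GC content moved with the libraries: over 10854 genes its Spearman correlation with a library's deviation from the 5-library mean was −0.538 in Control 1, 0.0683 in Control 2, −0.126 in variant 1, 0.25 in variant 2 and 0.475 in variant 3.

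Summed over the 47 genes, the share of counts was lower in each variant library than in either Control library. It was 0.419% in Control 1 (95% Wilson interval 0.416% to 0.422%) and 0.373% in Control 2 (0.370% to 0.376%). It was 0.304% in variant 1 (0.302% to 0.307%), 0.350% in variant 2 (0.347% to 0.352%) and 0.360% in variant 3 (0.357% to 0.363%). Only counting error within a library is covered by these intervals, which treat its reads as independent. The reads have no molecular identifiers, so repeated copies of a molecule cannot be told apart. The 2 Control libraries thus differed from each other by more than Control 2 differed from variant 3. In these bulk samples, fewer cells with the transcripts and less RNA per cell cannot be told apart.

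**Figure D1:**
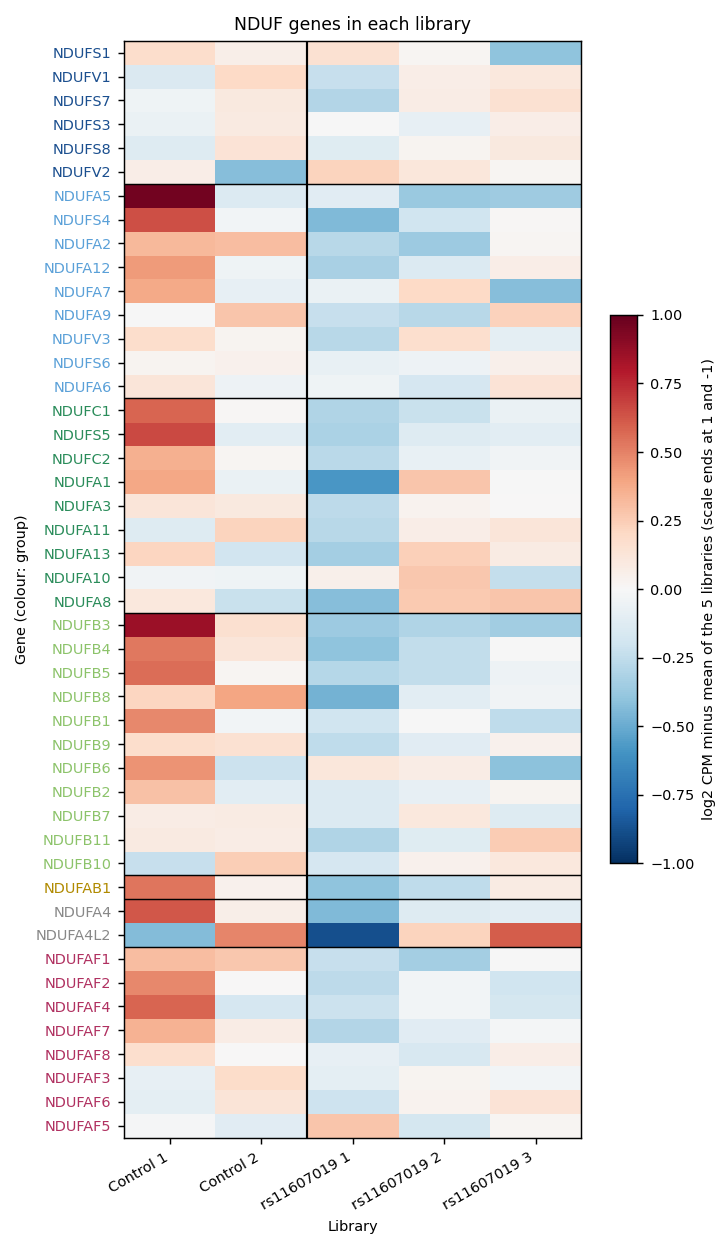
Each row is 1 of 46 NDUF genes and each column a library, and colour gives the log2 CPM minus the mean of the 5 libraries. Gene names are coloured by place in the complex, and the vertical line parts the Control from the rs11607019 libraries. Control 1 is the highest library for 26 of the 47 genes, with the darkest red at NDUFA5 and NDUFB3, while the core subunits in the top block are pale.

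Control 1 was the highest of the 5 libraries for 26 of 47 members (55.3%), beside 25.7% of all tested genes. Variant 1 was the lowest for 31 of 47 (66%), beside 22% of all. The difference between the 2 Control libraries was larger than the fitted difference between the groups in 29 of the 47. That count was not made over all tested genes, so whether it is particular to these members is not known. The groups did not overlap in 15 of 47, all with the variant libraries below (31.9%), beside 13% of all tested genes in that direction. The part of the GC difference between libraries in these counts was not tested directly, and values after a correction for GC content are given at the end.

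The 7 core subunits encoded in the nucleus showed little difference between the groups before any correction for GC content. Their median log2 fold change was −0.04, with 0 of 7 at an unadjusted p under 0.05. NDUFV1, which binds FMN and oxidises NADH, stood at 198 and 252 CPM in the Control libraries and at 187, 229 and 235 CPM in the variant libraries. Its groups overlapped, with Control 1 and variant 1 low and the other libraries high. NDUFS8, which holds a pair of iron-sulfur clusters, stood at 86.8 and 104 CPM against 87.2, 96.6 and 101 CPM, and its log2 fold change was −0.01 (SE 0.16). NDUFS3, a scaffold of the ubiquinone module, was the steadiest of the core, at 82.5 and 91.6 CPM against 85.8, 81.5 and 90.1 CPM. Its log2 fold change was −0.02 (SE 0.15, 95% interval −0.36 to 0.32).

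NDUFS7, which carries the last iron-sulfur cluster before ubiquinone, had a log2 fold change of −0.04 (SE 0.19). NDUFS1, the largest iron-sulfur subunit, stood at 144 and 133 CPM against 142, 130 and 96.5 CPM, and variant 3 was the low library. Its log2 fold change was −0.17 (SE 0.18).

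The core subunit NDUFV2, which holds an iron-sulfur cluster of the NADH module, was almost uncounted. It had 38 and 27 counts in the Control libraries and 43, 40 and 38 in the variant libraries, where NDUFV1, its direct partner, had 3229 in its lowest library. On the per-length scale NDUFV2 stood at 2.3 CPM per kilobase of transcript as a mean of 5 libraries, and NDUFV1 at 87.1. In GENCODE release 29, 82.9% of the exonic bases of the NDUFV2 transcript lie under exons of AP005263.1 on the same strand, and 82% of its 50-base stretches occur in transcripts of other genes. The processed pseudogene NDUFV2P1 had 205 and 144 counts in the Control and 135, 151 and 194 in the variant libraries, more than NDUFV2 itself in each. The fitted log2 fold change of NDUFV2, 0.30 (SE 0.34), was the highest of all members and rests on these few counts.

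Shared sequence of this kind was found in other members, whose levels are therefore uncertain. Over 50% of the 50-base stretches, the read length, were found in transcripts of another gene for 5 of the 47: NDUFV2, NDUFB2 (80%), NDUFA7 (76.8%), NDUFB8 (72.7%) and NDUFA11 (63.9%). For NDUFA7, NDUFB8 and NDUFA11 the other gene, AC010323.1, AL133352.1 and AC024592.3, lies on the same strand and covers 75.9%, 71.7% and 67% of the exonic bases. For NDUFB2 it is BRAF, on the opposite strand, and although the libraries are strand-specific per the labels, whether the counting used the strand is not given in the sources used here. NDUFA7, an accessory subunit of the matrix arm, had between 25 and 44 counts, as few as NDUFV2. For 16 of the 47 no stretch was shared. The annotation the submitters counted with is not given either, so whether these reads were set aside was not tested.

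Accessory subunits of the matrix arm were lower in the variant in 9 of 9, at a median log2 fold change of −0.26, with 3 at an unadjusted p under 0.05. NDUFA5, a subunit of the ubiquinone module, stood at 105 CPM in Control 1, and at 48.6 CPM in Control 2, close to 49.5, 41.4 and 41.9 CPM in the variant libraries. Its log2 fold change was −0.79 (SE 0.28), and −0.14 without Control 1. NDUFS4, whose loss in people and mice causes Leigh-type disease, stood at 80.8 and 50.7 CPM against 38, 45 and 52.1 CPM. Control 1 was again alone at the top, and the log2 fold change went from −0.55 to −0.17 without it.

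NDUFA2, a small subunit of the NADH module with a thioredoxin-like fold, behaved differently from NDUFA5. It stood at 79.8 and 78.8 CPM in the Control libraries and at 52.5, 49.4 and 64.4 CPM in the variant libraries, so the Control libraries were nearly equal and the groups did not overlap. Its mean was 79.3 ± 0.732 CPM in Control (SD, n = 2) and 55.5 ± 7.93 CPM in the variant (SD, n = 3), a log2 fold change of −0.52 (SE 0.17; adjusted p = 0.616, edgeR). This was −0.51 without Control 1 and −0.52 without Control 2. NDUFA9, the described SIRT3 substrate, is given although the naming rule does not cover it. It stood at 23.3 and 28.3 CPM against 19.9, 19.2 and 27.4 CPM. Variant 3 lay between the Control libraries and the other variant libraries below both, and its log2 fold change was −0.22 (SE 0.22). NDUFS6, which binds zinc and was picked out after its values were seen, varied least of all 47, between 140 and 153 CPM over the 5 libraries.

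Subunits of the proximal membrane arm, next to the matrix arm, had log2 fold changes with a median of −0.18 over 9 genes, with 7 lower and 2 at an unadjusted p under 0.05. NDUFC1 stood at 68.3 and 46 CPM against 37, 39.1 and 43.7 CPM, and its groups did not overlap. The fitted log2 fold change was −0.52 (SE 0.20), and −0.21 without Control 1. NDUFS5 stood at 225 CPM in Control 1, and at 132 CPM in Control 2, beside 114, 130 and 132 CPM in the variant libraries. For NDUFS5 the groups parted by a margin so small that Control 2 and variant 3 were equal to 3 digits, and the log2 fold change of −0.51 became −0.08 without Control 1. NDUFA8 and NDUFA10 were the 2 higher members here, with log2 fold changes of 0.12 (SE 0.23) and 0.08 (SE 0.17).

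The NDUFB subunits, which lie in the distal membrane arm, were lower in 11 of 11, at a median log2 fold change of −0.27, with 4 at an unadjusted p under 0.05. NDUFB3 had the largest difference of all members. It stood at 58 and 35.9 CPM in the Control libraries and at 24.9, 25.9 and 25.1 CPM in the variant libraries, which were within about 1 CPM of each other and all below both Controls. The means were 47.0 ± 15.6 CPM (SD, n = 2) and 25.3 ± 0.546 CPM (SD, n = 3), 1.85-fold lower on the fitted scale. Its log2 fold change was −0.89 (SE 0.22, 95% interval −1.38 to −0.40; adjusted p = 0.616, edgeR). This was −0.50 without Control 1 and −1.20 without Control 2.

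NDUFB4 and NDUFB5 followed with log2 fold changes of −0.54 (SE 0.19) and −0.51 (SE 0.20), and the groups did not overlap in either. Without Control 1 they were −0.33 and −0.21. NDUFB8, a subunit often used as a protein marker of assembled complex I, stood at 44.6 and 50.5 CPM against 27.5, 35.6 and 37.4 CPM. Here Control 2 and not Control 1 was the higher Control library. The log2 fold change was −0.51 (SE 0.19), −0.59 without Control 1 and −0.41 without Control 2. Most 50-base stretches of its annotated transcript also occur in another gene, as given above. At the other end of this group NDUFB10, the most abundant member per kilobase of transcript, had overlapping groups at 182 and 253 CPM against 191, 221 and 230 CPM. Its log2 fold change was −0.03 (SE 0.17).

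**Figure D2:**
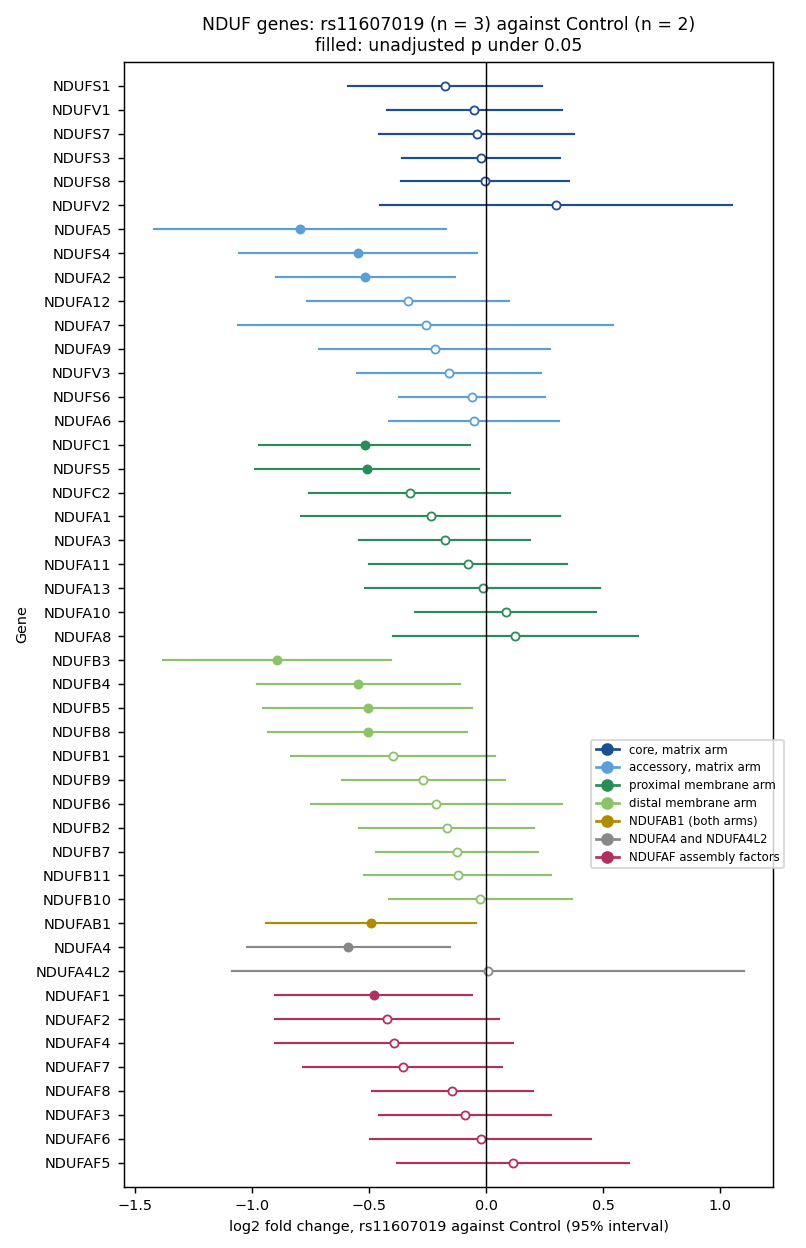
Points give the log2 fold change of rs11607019 (n = 3) against Control (n = 2) and lines its 95% interval from edgeR's fit, with 46 genes grouped and coloured by place in the complex. Filled points, 12 in all and none among the core subunits, had an unadjusted p under 0.05, and no gene passed after adjustment.

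NDUFAB1, the mitochondrial acyl carrier protein, sits in both arms and also serves fatty acid synthesis. It stood at 177 and 126 CPM against 92, 102 and 129 CPM, with variant 3 above Control 2, and a log2 fold change of −0.49 (SE 0.20) that was −0.23 without Control 1. NDUFA4 stood at 251 and 169 CPM against 120, 149 and 151 CPM with groups that did not overlap, and a log2 fold change of −0.59 (SE 0.19) that was −0.28 without Control 1. NDUFA4L2 was near the bottom of the table with 18 to 55 counts and went the other way between libraries, with Control 1 and variant 1 low. The subunit median was −0.18 with these 2 genes and −0.18 without them.

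The 8 NDUFAF assembly factors were lower in 7 of 8, at a median log2 fold change of −0.25, with 1 at an unadjusted p under 0.05. NDUFAF1, a member of the assembly complex for the membrane arm, stood at 29.3 and 28.5 CPM against 20.1, 18.6 and 23.5 CPM. Its Control libraries were nearly equal and above all 3 variant libraries, with means of 28.9 ± 0.527 CPM (SD, n = 2) and 20.7 ± 2.51 CPM (SD, n = 3). Its log2 fold change of −0.48 (SE 0.19; adjusted p = 0.625, edgeR) was −0.46 without Control 1 and −0.50 without Control 2.

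NDUFAF2, which acts late as the NADH module joins, and NDUFAF7, an arginine methyltransferase of the mitochondrial matrix, also had groups that did not overlap. NDUFAF2 stood at 27 and 19.3 CPM against 16.1, 19 and 16.8 CPM, and NDUFAF7 at 32.6 and 26.9 CPM against 20.9, 23.7 and 25.1 CPM. Their log2 fold changes were −0.42 (SE 0.21) and −0.36 (SE 0.19), and −0.16 and −0.21 without Control 1. NDUFAF2 shares 36.3% of its 50-base stretches with AC012065.5. NDUFAF4, a factor for the ubiquinone module, resembled NDUFA5: it stood at 60.6 CPM in Control 1 and between 34.7 and 39.7 CPM in the other 4 libraries, and its log2 fold change of −0.39 (SE 0.23) was 0.03 without Control 1. Its partner NDUFAF3 did not share this pattern, at 51.6 and 61.9 CPM against 51.1, 55.6 and 53.5 CPM.

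NDUFAF5, which hydroxylates an arginine of NDUFS7, was the higher member of the group, at 14.3 and 13.3 CPM against 17.5, 12.7 and 14.6 CPM. Variant 1 alone was high, and the log2 fold change was 0.12 (SE 0.22). Its partner NDUFAF8 had −0.14 (SE 0.15). NDUFAF6 had −0.02 (SE 0.21), with overlapping groups between 13.9 and 17.7 CPM.

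Subunits and NDUFAF genes had similar medians in each library. As log2 CPM minus each gene's 5-library mean, the median was 0.18 for the 39 subunit genes and 0.24 for the 8 NDUFAF genes in Control 1, and 0.05 and 0.04 in Control 2. It was −0.27 and −0.21 in variant 1, −0.07 and −0.07 in variant 2, and 0.02 and −0.01 in variant 3. The 2 classes kept the same order of libraries, from Control 1 down to variant 1. The gap between the fitted medians, subunits minus NDUFAF, was 0.07 on the log2 scale and turned to −0.04 after correcting for GC content and length. Within single libraries the gap between the deviations was −0.06 in Control 1 and 0.01 in Control 2, and −0.06, −0.01 and 0.03 in variant 1, 2 and 3, so the groups overlapped. No test of this gap was made.

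**Figure D3:**
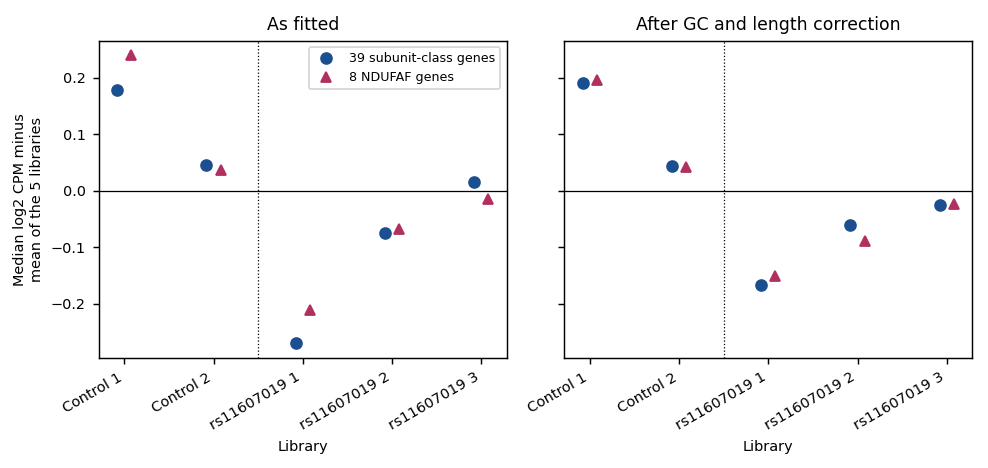
Circles give the median of the 39 subunit-class genes and triangles that of the 8 NDUFAF genes, as log2 CPM minus the 5-library mean, in each library. On the left the values are as fitted and on the right after correcting for transcript GC and length, and both classes lie highest in Control 1 and lowest in variant 1 on either side.

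The classes stood at different levels. As a mean of 5 libraries, the median level was 72.6 CPM per kilobase of transcript for subunits and 16.8 for NDUFAF genes, and per kilobase of coding sequence it was 157 and 31.6. The subunits ran from 1.82 for NDUFA4L2 and 2.3 for NDUFV2 to 268 for NDUFS5 and 306 for NDUFB10 per kilobase of transcript. NDUFAF8, at 161, was the NDUFAF gene at the level of the abundant subunits, and the next, NDUFAF2, stood at 27.3. The transcript chosen sets these values: NDUFA9 stood at 2.82 on the transcript scale, with a transcript of 8363 bases, and at 20.9 on the coding scale. The extremes also changed on the coding scale. There NDUFA4, at 692, stood above NDUFB10, at 417, and NDUFV2, at 2.86, stood below NDUFA4L2, at 8.28.

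**Figure D4:**
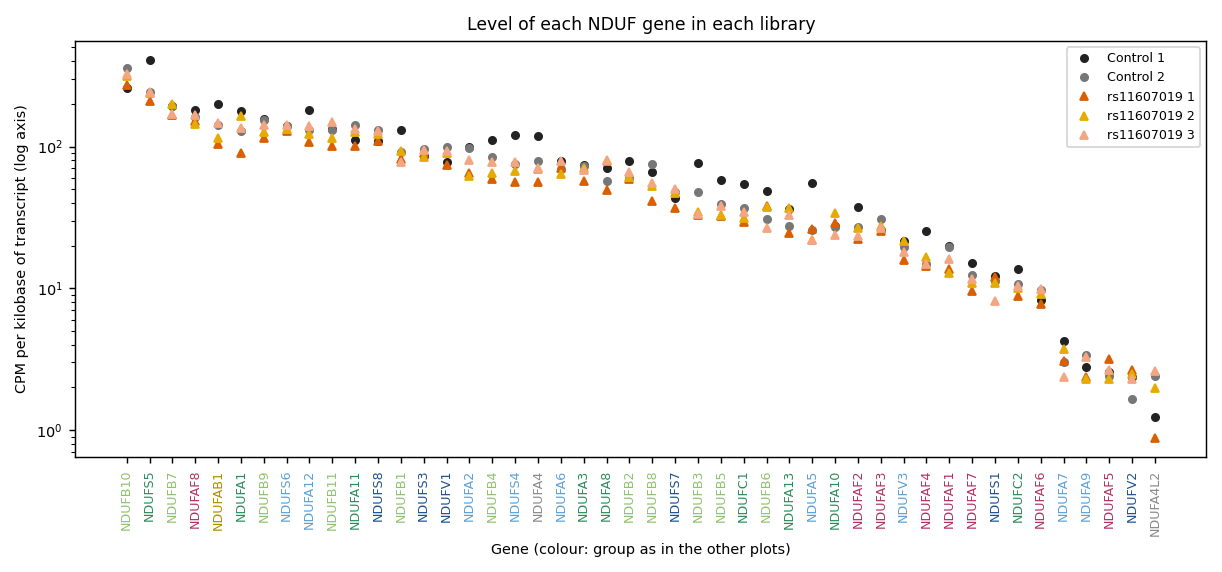
Each column is 1 of 46 NDUF genes, ordered by its mean, and each symbol a library, with circles for Control and triangles for rs11607019. The vertical axis is CPM per kilobase of the representative transcript on a log scale, from NDUFB10 at a mean of 306 to NDUFA4L2 at 1.82, and the spread between libraries is small beside the spread between genes.

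Other genes of the pathway were taken from lists of the same kind. Of 12 assembly factors without an NDUF name, 6 were higher and 6 were below Control, and their log2 fold changes had a median of −0.04. In edgeR's test 0 had an adjusted p under 0.05, and 1, TMEM126B, had an unadjusted p under 0.05. TMEM126B, which works with NDUFAF1 on the membrane arm, stood at 40.2 and 28.1 CPM against 21.2, 19.9 and 23.9 CPM, and its log2 fold change was −0.66 (SE 0.21). ECSIT, another member of that assembly complex, was higher, at 41.5 and 49.2 CPM against 52.6, 51.9 and 51.1 CPM, with a log2 fold change of 0.19 (SE 0.16).

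The 7 ND genes of mitochondrial DNA, which encode the proton-pumping core, had log2 fold changes with a median of −0.11, with 5 lower and 0 at an adjusted p under 0.05. MT-ND3 was the one at an unadjusted p under 0.05, at 1065 and 815 CPM against 739, 726 and 707 CPM. Among the nuclear subunits of the other complexes the median was −0.28 over 4 genes of complex II and −0.31 over 9 of complex III. It was −0.44 over 10 of complex IV and −0.31 over 17 of ATP synthase. It was −0.16 over 77 mitochondrial and −0.15 over 80 cytosolic ribosomal protein genes, beside 0.003 over all tested genes. In edgeR's test, genes lower at an unadjusted p under 0.05 were 2 of 4 in complex II, 4 of 9 in complex III and 5 of 10 in complex IV. They were 7 of 17 in ATP synthase, 12 of 77 mitochondrial and 16 of 80 cytosolic ribosomal protein genes. Beside these stand 12 of the 47 members and 3.51% of all tested genes. These lists share the libraries with the NDUF genes, and no test of the lists was made.

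Members were spread over 22 chromosomes, and those on chromosomes 9 and 14, with the highest medians, and on chromosome 11 were looked at apart. The next medians were 0.17 on chromosome 20, where NDUFAF5 had 0.12, and 0.16 on chromosome 18, where NDUFV2 had 0.30. On chromosome 6 the median was 0.12, and NDUFAF4 had −0.39. On chromosome 9, whose 662 tested genes had a median log2 fold change of 0.35, NDUFA8 had 0.12 and NDUFB6 −0.21 (SE 0.24). On chromosome 14, with a median of 0.31 over 541 genes, NDUFB1 had −0.40 (SE 0.19), at 68.8 and 48.2 CPM against 42.9, 48.9 and 41.3 CPM, and it had −0.12 without Control 1. On chromosome 11, which carries SIRT3, the median was −0.01, where NDUFV1 had −0.05, NDUFS8 −0.01, NDUFS3 −0.02 and NDUFC2 −0.33 (SE 0.19), which was −0.15 without Control 1.

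GC content differed between the members that stood apart and the others. The representative transcripts of the 12 genes at an unadjusted p under 0.05 had a median GC content of 45.3%, with 10 of 12 under 50%. Those of the other 35 had a median of 53%, with 16 of 35 under 50%. Across the 47 genes, which share their libraries and are not replicates, the Spearman correlation of GC content was −0.624 with Control 1 minus Control 2 and 0.499 with the fitted log2 fold change. The core subunits had a median GC content of 54.4%, against 47.5% for the distal membrane arm.

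**Figure D5:**
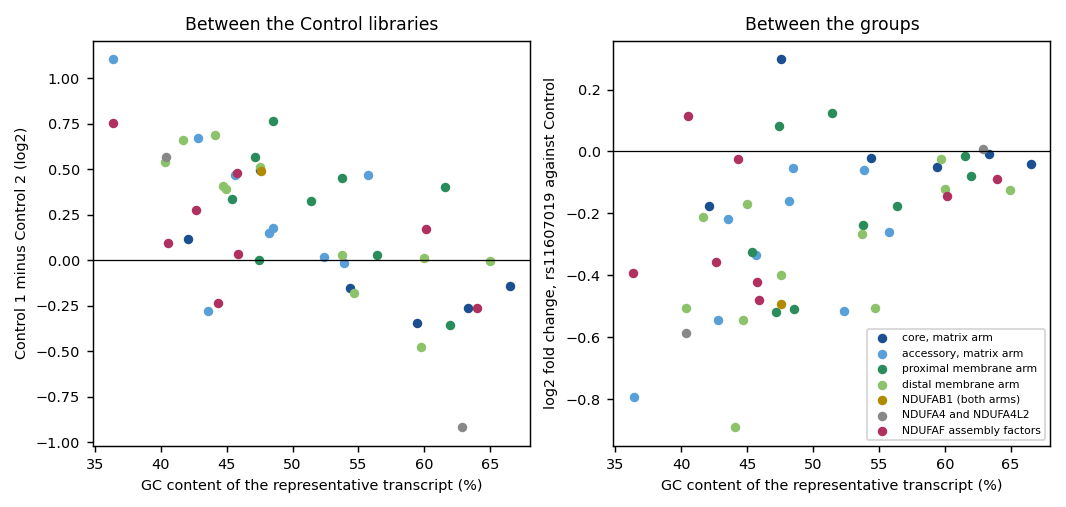
Each point is 1 of 46 NDUF genes, with the GC content of its representative transcript in percent on the horizontal axis. The left panel shows Control 1 minus Control 2 on the log2 scale and the right panel the log2 fold change of rs11607019 against Control, and the AT-rich genes lie high on the left (Spearman −0.624 over all 47) and low on the right (0.499).

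Once transcript GC and length were corrected for, 42 of the 47 members were still lower in the variant, beside 54.2% of all tested genes. The subunit median was −0.23 and the NDUFAF median −0.18. The number at an unadjusted p under 0.05 was 7 in place of 12: NDUFB3, NDUFA2, NDUFB8, NDUFA4, NDUFC1, NDUFB4 and NDUFAF1. In that fit 3.45% of all tested genes were lower at such a p. NDUFA5 moved from −0.79 to −0.49 and NDUFB3 from −0.89 to −0.70. The core subunits NDUFS1, NDUFV1 and NDUFS7 had −0.24, −0.17 and −0.15 in that fit, further below 0 than without the correction. NDUFS8 had −0.05, NDUFS3 −0.02 and NDUFV2 0.40. Control 1 remained highest and variant 1 lowest in the corrected medians of both classes. The correction left a relation to GC content among the members. Over the 47, the Spearman correlation of GC content with a library's deviation was then −0.449 in Control 1, beside −0.606 before. In Control 2 it was 0.353, beside 0.367 before. In variant 1, 2 and 3 it was 0.207, 0.199 and −0.0922, beside −0.0436, 0.478 and 0.457 before.

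In 4 members, NDUFB3, NDUFA2, NDUFB8 and NDUFAF1, the log2 fold change stayed at or below −0.35 in every alternative tried. The value nearest 0 was −0.50, −0.44, −0.38 and −0.40 in turn. This is a bound on size and not on spread, since NDUFB3 ranged from −1.20 to −0.50 over the alternatives. All alternatives draw on the same libraries, so they are not independent of each other. How many of all tested genes stay below such a bound was not counted, so whether this is particular to the members is not known. Most of the annotated NDUFB8 transcript is shared with another gene, as given above, so its level is uncertain. These 4 members were chosen after their values were seen. Their smallest adjusted p in any alternative was 0.0927 for NDUFB3, in the Wald test of DESeq2, and no member passed the adjusted threshold in any of them.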

How the data were processed

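mRNA libraries from 5 HEK293 samples were sequenced, and the deposited table holds the authors' raw read counts per gene, with no normalization, per the file's whole-number values. HISAT2, SAMtools, HTSeq and the build hg38 are named in the submitters' processing notes. The annotation release, the strand setting of the counting and any filter are not given in the sources used here. Of the table's 16677 rows, 16627 were given symbols from the gene name table and 46 from GENCODE, and no column was left unmatched. Library totals were 17122569 to 17596084 counts, and no pair of libraries was alike within sampling noise.

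Genes were filtered with filterByExpr, which left 16310, scaled by TMM, and tested with edgeR 4.0.16 (quasi-likelihood, robust, R 4.3.3), 3 rs11607019 libraries against 2 Control libraries, with two-sided p-values adjusted by Benjamini-Hochberg over all tested genes at a threshold of 0.05. Fold changes are log2, and per-library log2 CPM used a prior count of 2. GC content and length came from the longest principal transcript of GENCODE release 29, and the correction for them used splines with 5 degrees of freedom. Sequence shared with other genes was counted over 50-base stretches of transcripts. Alternatives were RLE and upper-quartile scaling, other count filters, DESeq2 1.42.0, limma-voom 3.58.1, a replicate block, the GC and length correction, and leaving out each library. The edgeR fit and the correction were tested on simulated data. Genes were named by rule: core subunits, NDUFAF genes, members at an unadjusted p under 0.05, the 3 highest and 3 lowest subunits, members on chromosomes 9, 11 and 14, NDUFA4, NDUFA4L2, NDUFAB1, and the extremes of level. The members and lists were chosen with earlier results of these data known. Of the members, 1 is counted in the totals and medians but is not reported here by its own values, and the plots by gene leave it out.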

Additional observations from a re-analysis of the deposited data

How the results depend on the processing

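Of 658 member values under the alternatives, 37 changed sign, 621 did not, and 0 passed the adjusted threshold; 28 members never changed sign. The number of members at an unadjusted p under 0.05, 12, was 7 with the GC and length correction, 9 with the replicate block and that correction together, and 1 to 13 when single libraries were left out, with 1 without Control 1, 13 without Control 2, and 5 each without variant 1 or variant 2. The share of all tested genes lower at such a p moved too, from 3.51% to 3.45% with the correction, 4.03% with both, and 1.19%, 5.18%, 2.82% and 2.12% without those libraries. The subunit median stayed between −0.23 and −0.13 and the NDUFAF median between −0.36 and −0.15 without single libraries. Their difference was 0.0124 to 0.124 there, but −0.0441 with the GC and length correction and −0.10 with the replicate block and that correction.

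With the replicate number as a block, 11 members had an unadjusted p under 0.05, the medians were −0.22 and −0.27 and their difference 0.05. All 11 were lower, where 4.10% of all tested genes were lower at such a p, beside 3.51% in the main fit. The deviations of same-numbered libraries correlated at 0.12 and −0.113 over 16310 genes. With 2 Control libraries, Control 2 mirrors Control 1, whose correlation with variant 2 was 0.113. These values therefore cannot decide whether the numbers pair the samples, and no pairing was assumed in the main fit.

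NDUFA4L2 was −0.0497 with limma-voom, −0.37 with the block, −0.0886 with the GC and length correction and −0.38 with both. NDUFA8 was −0.0188 with the block, NDUFB6 0.14 with the block and correction, and NDUFAF6 0.0631 with the correction.

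Without single libraries these members changed sign: NDUFA1 (−0.45 to 0.00742), NDUFA10 (−0.045 to 0.20), NDUFA11 (−0.24 to 0.11), NDUFA13 (−0.20 to 0.20), NDUFA4L2 (−0.39 to 0.57), NDUFA6 (−0.14 to 0.0371), NDUFA7 (−0.48 to 0.00554), NDUFA8 (−0.0294 to 0.32), NDUFB10 (−0.24 to 0.23), NDUFB2 (−0.35 to 0.0413), NDUFB6 (−0.51 to 0.16), NDUFS3 (−0.0961 to 0.0568), NDUFS7 (−0.13 to 0.0836), NDUFS8 (−0.13 to 0.13), NDUFV1 (−0.21 to 0.13), NDUFAF3 (−0.21 to 0.0485), NDUFAF4 (−0.72 to 0.0323), NDUFAF5 (−0.0133 to 0.22), NDUFAF6 (−0.14 to 0.0995). The cause of these changes was not tested. With 2 Control libraries, depth limits NDUFV2, NDUFA7 and NDUFA4L2 most.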
